A study of Mus musculus with 4 samples.

Results

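Semaphorins are secreted or membrane-bound guidance proteins, and plexins and neuropilins are their receptors. The 10 genes described here are the neuropilins Nrp1 and Nrp2, the plexins Plxna2, Plxna4 and Plxnd1, the class 3 semaphorins Sema3a, Sema3c, Sema3d and Sema3f, and the class 6 semaphorin Sema6d. They were chosen by gene symbol among 23337 gene rows, for known roles in the outflow tract and valves and because Nrp2 was higher in both mutant libraries. All 10 had a row and all 10 passed the filter on low counts that left 14316 genes for testing. Since the values of Nrp2 took part in the choice, its difference between genotypes is described without a test.

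Total RNA was sequenced from cardiac cushions, the swellings from which heart valves form, dissected from C57BL/6 mouse embryos at embryonic day 14.5. There were 2 libraries from wildtype littermates and 2 from Nfatc1Cre;Brg1F/F mutants, in which the chromatin remodelling ATPase Brg1 (gene symbol Smarca4) is deleted by a Cre expressed from Nfatc1, a gene of the endocardium. Per the labels' protocols, GFP from a Cre reporter guided the dissection for all 4 libraries. Taken as written, this needs Cre in the wildtype embryos too, but their Cre genotype is not stated in the sources used here. How many embryos went into a library is not given there either. Thus p-values reflect the spread between single libraries, part of which may be technical.

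In this system a class 3 semaphorin is secreted by one cell and binds a neuropilin on another, and the neuropilin passes the signal on through a plexin, which acts on small GTPases and the cytoskeleton. Class 6 semaphorins stay in the membrane and bind plexins directly. In the developing outflow tract, class 3 semaphorins guide cardiac neural crest cells and act on endothelium, and neuropilins also bind VEGF proteins, which links the family to vessel growth.

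Gene reads numbered 14104458 in the shallowest library and 22426537 in the deepest, and levels are given as CPM, gene counts scaled by the TMM-adjusted library size. Smarca4, the deleted gene, was at 251 and 231 CPM in the wildtype libraries, against 282 and 239 CPM in those labelled mutant. Counts over the whole gene, in tissue that also holds cells outside the Cre lineage, do not check the deletion, and "mutant" below means the libraries labelled so. Summed markers of the labelled tissue were present in every library, at 1357 and 1395 CPM in wildtype, against 1304 and 1326 CPM in mutant, over 9 of 9 endocardial and endothelial genes, and at 5311 to 5887 CPM over 8 of 8 cushion mesenchyme genes. Cardiomyocyte markers (7 of 7) summed to 65090 and 58887 CPM in wildtype, against 51874 and 56267 CPM in mutant, so heart muscle was part of the tissue. This sum was lower in both mutant libraries. Its largest part was Ttn, at 37497 and 34651 CPM in wildtype, against 29552 and 31334 CPM in mutant. In 3 of the 7 genes both mutant libraries lay below both wildtype libraries, as in 16.3% of all tested genes. In the others the groups overlapped. Mutant replicate 2 held 1131 to 3384 reads of 4 Y-linked genes, so replicate pair 2 differed in sex as well as in genotype. Wildtype replicate 2 held 11 to 28 reads of these genes, and both replicate 1 libraries held 0. The source of the few Y-linked reads in wildtype replicate 2 was not tested. In bulk tissue, fewer cells of a type and less RNA per cell cannot be told apart.

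Promoter sequences are shown for the 3 genes of the set whose mutant libraries both lay above both wildtype libraries, Nrp2, Plxna2 and Sema3d, and for Nrp1, the paralogue of Nrp2 whose level was alike in all libraries. Each runs 5′ to 3′ from 250 bases before to 50 bases after a start site in RefSeq, on build GRCm38.p6. The windows are chr1:62703067-62703366 (plus strand) for Nrp2, chr8:128358823-128359122 (plus) for Nrp1, chr1:194619579-194619878 (plus) for Plxna2 and chr5:12382916-12383215 (plus) for Sema3d. Capitals mark matches to the GC box letters GGGCGG on either strand, and overlapping matches run together.
Nrp2: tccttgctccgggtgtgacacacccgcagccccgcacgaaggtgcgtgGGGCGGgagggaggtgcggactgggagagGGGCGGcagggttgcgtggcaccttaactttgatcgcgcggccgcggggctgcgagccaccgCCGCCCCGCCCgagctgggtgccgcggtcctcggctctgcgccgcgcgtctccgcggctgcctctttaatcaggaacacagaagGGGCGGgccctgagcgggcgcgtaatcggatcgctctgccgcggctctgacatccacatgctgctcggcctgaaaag
Nrp1: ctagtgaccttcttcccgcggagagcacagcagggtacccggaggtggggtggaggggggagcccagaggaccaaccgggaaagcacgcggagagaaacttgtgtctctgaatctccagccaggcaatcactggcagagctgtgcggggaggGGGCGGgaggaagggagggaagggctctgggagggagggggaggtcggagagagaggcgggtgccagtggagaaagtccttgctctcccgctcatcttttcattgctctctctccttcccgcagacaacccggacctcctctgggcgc
Plxna2: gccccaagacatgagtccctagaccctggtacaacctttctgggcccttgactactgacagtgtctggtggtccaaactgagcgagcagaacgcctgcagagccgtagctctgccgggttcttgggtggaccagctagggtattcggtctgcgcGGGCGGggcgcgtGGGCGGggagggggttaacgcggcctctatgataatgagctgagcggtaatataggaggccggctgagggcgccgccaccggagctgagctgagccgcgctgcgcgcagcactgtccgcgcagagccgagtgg
Sema3d: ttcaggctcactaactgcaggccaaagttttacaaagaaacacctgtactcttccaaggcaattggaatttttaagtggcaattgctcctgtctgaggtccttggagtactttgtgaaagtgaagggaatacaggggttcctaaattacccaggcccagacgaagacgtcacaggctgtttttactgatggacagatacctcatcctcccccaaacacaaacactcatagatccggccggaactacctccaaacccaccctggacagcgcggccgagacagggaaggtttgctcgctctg

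The Nrp2 window holds 5 GC box matches, that of Nrp1 holds 1, that of Plxna2 holds 2 and that of Sema3d holds 0. RefSeq windows were matched for 8 of the 10 genes, 9 windows in all since Sema6d has 2 start sites. Of these, 6 held the GC box, which 35.7% of 32851 windows of 300 bases held. The letters GGAAA, the core that NFAT factors bind, were found on either strand in 4 of the 9 windows (Nrp1, Plxnd1, Sema3a and 1 of Sema6d), against 61.3% of all windows. CpG dinucleotides numbered 37 in the Nrp2 window, 14 in that of Nrp1, 25 in that of Plxna2 and 8 in that of Sema3d. The median was 14 over the 9 windows and 7 over all windows. The windows of Nrp1, Plxna2, Sema3a, Sema3c and 1 of Sema6d begin downstream of the first base of the gene in GENCODE M21, which places an earlier start there. That of Sema3d ends upstream of the first base of its gene in GENCODE M21. These matches describe the letters in the windows only.

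Levels were compared between genes as CPM per kilobase of exon, using merged exon lengths of GENCODE M21. Nrp1, the receptor subunit shared by Sema3a and VEGF-A, had the highest level of the 10 genes, a mean of 41.5 CPM per kilobase over the 4 libraries. Plxnd1, an endothelial plexin that Sema3e can bind without a neuropilin, followed at 23.5, and Sema6d at 21.3. Sema3c and Sema3d measured 13.8 and 13.1, Plxna4 9.76, Nrp2 9.28, Sema3a 6.49 and Plxna2 5.20 CPM per kilobase. Sema3f was lowest at 1.66 CPM per kilobase, at the 25.4 percentile of the tested genes with an exon length, while Nrp1 lay at the 93.7 percentile. The ranges over the 4 libraries overlapped between Plxnd1 and Sema6d, between Sema3c and Sema3d, between Plxna4 and Nrp2, and between Nrp2 and Sema3a. The other 5 neighbours in this order did not overlap.

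**Figure D1:**
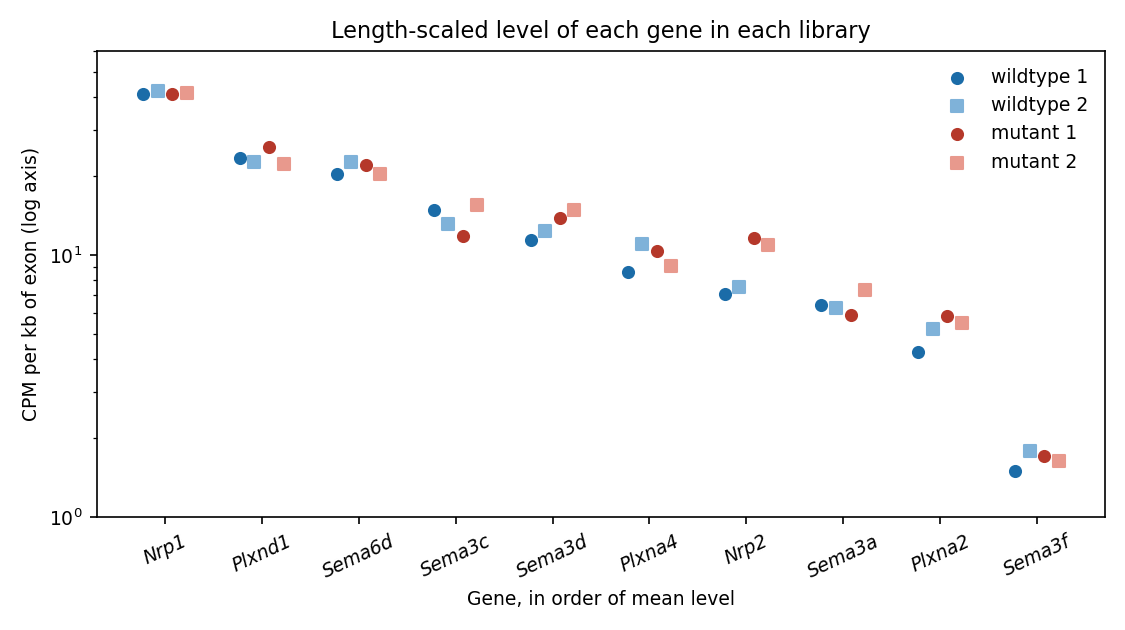
Level of each of the 10 genes in CPM per kilobase of exon (vertical axis, log scale) in each of the 4 libraries (1 point each; circles are replicate 1, squares replicate 2). Nrp1 is highest at a mean of 41.5 and Sema3f lowest at 1.66; for Nrp2 both mutant points lie above both wildtype points.

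Nrp2, which binds Sema3f, Sema3c and the lymphatic growth factor VEGF-C, had the largest difference of the 10 genes. It lies on chromosome 1 at 62703285 to 62818695 (GRCm38), with 18 merged exons. Wildtype replicates 1 and 2 had 83.8 and 89.0 CPM, against 137 CPM in mutant replicate 1 and 129 CPM in mutant replicate 2. Both mutant libraries were higher, as the choice of the set required and as was so for 17.0% of all tested genes. Nrp2 was chosen for this order, so the gap between the groups and the SE below are descriptions and not tests. The means were 86.4 ± 3.65 CPM in wildtype, against 133 ± 5.63 CPM in mutant (SD, n = 2 libraries each), a fold of 1.54 and a log2 fold change of 0.63 ± 0.12 (SE). Within pair 1 the log2 ratio of mutant over wildtype was 0.71, and within pair 2 it was 0.54. The authors' deposited table gives 0.63, turned here to mutant over wildtype. These counts are of 1410 to 3119 reads a library.

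Nrp1 (chromosome 8, 128358604 to 128503363) measured 401 and 414 CPM in the wildtype libraries and 403 and 406 CPM in the mutant libraries. The groups overlapped and all 4 values lay close together. Its log2 fold change was -0.011 ± 0.12 (SE), with a 95% interval from the edgeR fit of -0.29 to 0.27. The ratio of the paralogues within a library needs no scaling between libraries. There were 0.209 and 0.215 Nrp2 reads per Nrp1 read in the wildtype libraries, and 0.341 and 0.318 in the mutant libraries. Per exon length, Nrp2 stayed below Nrp1 in all 4 libraries, at a ratio of 0.173 and 0.178 in wildtype and 0.282 and 0.263 in mutant.

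**Figure D2:**
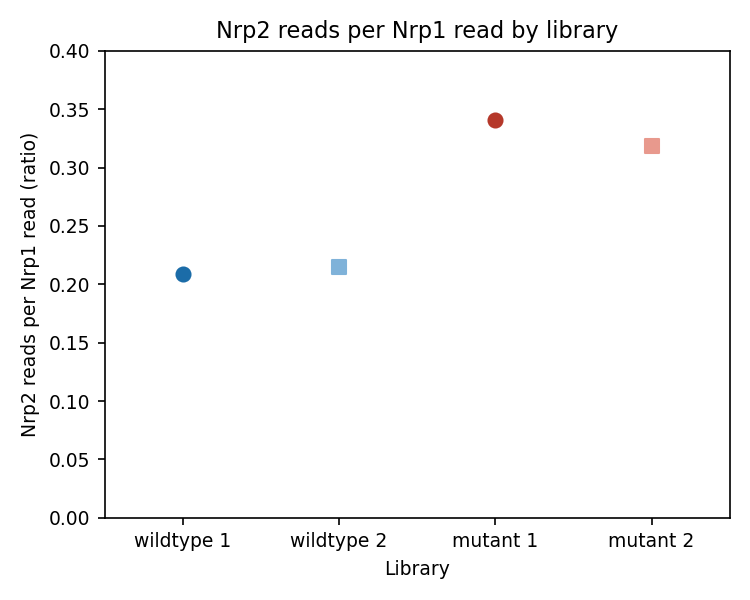
Nrp2 reads per Nrp1 read (vertical axis, from 0) in each of the 4 libraries, 1 point each (circles are replicate 1, squares replicate 2). The wildtype libraries sit at 0.209 and 0.215, the mutant libraries at 0.341 and 0.318.

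Summed markers of several other cell types also separated the genotypes. The 8 of 8 leukocyte genes with a row summed to 49.8 and 53.3 CPM in the wildtype libraries and to 112 and 119 CPM in the mutant libraries, and all 8 genes were higher in both mutant libraries, as were 17.0% of all tested genes. Erythroid markers (6 of 6) summed to 584 and 592 CPM in wildtype, against 844 and 647 CPM in mutant. Smooth muscle markers (5 of 5) summed to 1244 and 1261 CPM in wildtype, against 1339 and 1372 CPM in mutant, and hepatocyte markers (5 of 5) to 5.06 and 4.80 CPM, against 9.07 and 17.2 CPM. Not every gene of these lists followed its sum. Both mutant libraries were higher in 4 of 6 erythroid genes and in 2 of 5 smooth muscle genes, with 1 smooth muscle gene lower. Of 3 hepatocyte genes that could be tested, Alb and Afp were higher in both mutant libraries and Ttr overlapped. The sums of these 4 lists were higher in both mutant libraries, and those of the cardiomyocyte and endocardial lists were lower in both. Of the 9 endocardial and endothelial genes, Npr3 was the one lower in both, at 243 and 229 CPM in wildtype, against 124 and 132 CPM in mutant. A further 2 of the 9 were higher in both, and the others overlapped. The Npr3 difference exceeded that of the whole endocardial sum, so without Npr3 the sum was not lower in the mutant libraries. Over all tested genes, 17.0% were higher in both and 16.3% lower in both. The part of these cell types in the Nrp2 difference was not tested. Lymphatic and venous endothelial markers (6 of 6) summed to 281 and 314 CPM in wildtype, against 306 and 284 CPM in mutant, with overlapping groups. Neural crest, Schwann cell and neuron markers (10 of 10 with a row) summed to 29.2 to 36.1 CPM over the 4 libraries, again overlapping. Of that list's defining genes, Foxd3 had 0 reads in every library and Sox10 had 0 to 3.

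None of the other 9 genes differed between genotypes past the threshold. By edgeR's quasi-likelihood test with Benjamini-Hochberg adjustment over all 14316 genes, 0 of the 9 passed an adjusted p of 0.05, where 0.0629% of all genes did. At an unadjusted p under 0.05 there were also 0 of 9, and DESeq2 and limma-voom each called 0. A fit blocked on the replicate number also called 0, where it called 0.887% of all genes. Their adjusted p ran from 0.891 for Sema3d to 0.995 for Nrp1. Their median log2 fold change was 0.025, and that of all tested genes was -0.0027. In 2 of the 9, Plxna2 and Sema3d, both mutant libraries lay above both wildtype libraries, as did 17.0% of all tested genes, and in 0 of the 9 both lay below, as did 16.3%.

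The plexins carry the signal across the membrane. Plxna2, a plexin of cardiac neural crest cells (chromosome 1, 194618218 to 194816869), measured 73.1 and 89.2 CPM in wildtype, against 101 and 94.5 CPM in mutant. The groups did not overlap, but the wildtype libraries lay further apart from each other than the nearer of them lay from either mutant library. Its log2 fold change was 0.27 ± 0.14 (SE; edgeR adjusted p = 0.935), 0.46 within pair 1 and 0.082 within pair 2. It was 0.13 without wildtype replicate 1 and 0.41 without wildtype replicate 2. Plxna4, a receptor in the Sema3a response of sensory axons (chromosome 6, 32144268 to 32588192), measured 122 and 155 CPM in wildtype, against 146 and 128 CPM in mutant. Its wildtype libraries enclosed both mutant ones. Plxnd1 (chromosome 6, 115954811 to 115995005) measured 170 and 166 CPM in wildtype, against 189 and 162 CPM in mutant, with mutant replicate 1 the highest and mutant replicate 2 the lowest. Its log2 fold change was 0.064 ± 0.13.

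The class 3 ligands followed no common direction. Sema3d, which acts on endothelial cells and the patterning of veins (chromosome 5, 12383385 to 12588948), measured 97.9 and 106 CPM in wildtype, against 119 and 127 CPM in mutant. Its groups did not overlap, and its log2 ratio was alike in both pairs, 0.28 and 0.26. The log2 fold change was 0.27 ± 0.13 (SE), with a 95% interval of -0.016 to 0.55. Sema3c, the ligand required for septation of the outflow tract (chromosome 5, 17574281 to 17730268), measured 106 and 93.8 CPM in wildtype, against 84.3 and 110 CPM in mutant. Mutant replicate 1 was the lowest library and mutant replicate 2 the highest, so its log2 ratio was -0.33 in pair 1 and 0.23 in pair 2. Sema3a, a repellent of sympathetic axons in the heart (chromosome 5, 13125414 to 13602565), measured 89.5 and 87.0 CPM in wildtype, against 82.0 and 102 CPM in mutant. It had the same order of mutant libraries as Sema3c. Sema3f, the preferred ligand of Nrp2 (chromosome 9, 107681500 to 107710475), measured 7.83 and 9.28 CPM in wildtype, against 8.89 and 8.47 CPM in mutant, with both mutant values between the wildtype ones. It rests on 120 to 202 reads a library, and its SE of 0.21 was the largest of the 10 genes.

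Each ligand's share of the length-scaled level of all 7 class 3 semaphorins shows the same in another way. Sema3c made up 39.0% and 35.2% in wildtype and 31.6% and 36.0% in mutant, while Sema3d made up 30.0% and 33.2% in wildtype and 37.0% and 34.4% in mutant. Sema3c ranked above Sema3d in both wildtype libraries and in mutant replicate 2, and below it in mutant replicate 1. Sema3a kept between 15.8% and 17.0% in all 4 libraries. The other 3 class 3 genes, Sema3b, Sema3e and Sema3g, each stayed under the share of Sema3a in every library.

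Sema6d, a membrane semaphorin that binds Plxna1 in the developing heart (chromosome 2, 124089969 to 124667770), measured 214 and 238 CPM in wildtype, against 232 and 214 CPM in mutant. The groups overlapped, and replicate 1 of the mutant lay between the wildtype values. Its log2 fold change was -0.019 ± 0.13 (SE), with a 95% interval of -0.31 to 0.27. For the 9 genes a p that misses the threshold does not show equal levels. Their 95% intervals give the sizes that the libraries leave possible. Those not given above were -0.06 to 0.59 for Plxna2, -0.36 to 0.33 for Plxna4 and -0.23 to 0.36 for Plxnd1. For the ligands they were -0.27 to 0.38 for Sema3a, -0.39 to 0.32 for Sema3c and -0.44 to 0.49 for Sema3f. In the annotation, the exons of Plxna4 share 110 bases with an antisense gene. Those of Nrp1 share 80 bases with the miRNA gene Mir1903, which lies on the same strand and had 0 reads in every library. The counting strand is not given in the sources used here, so reads of the antisense partner of Plxna4 cannot be told apart.

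**Figure D3:**
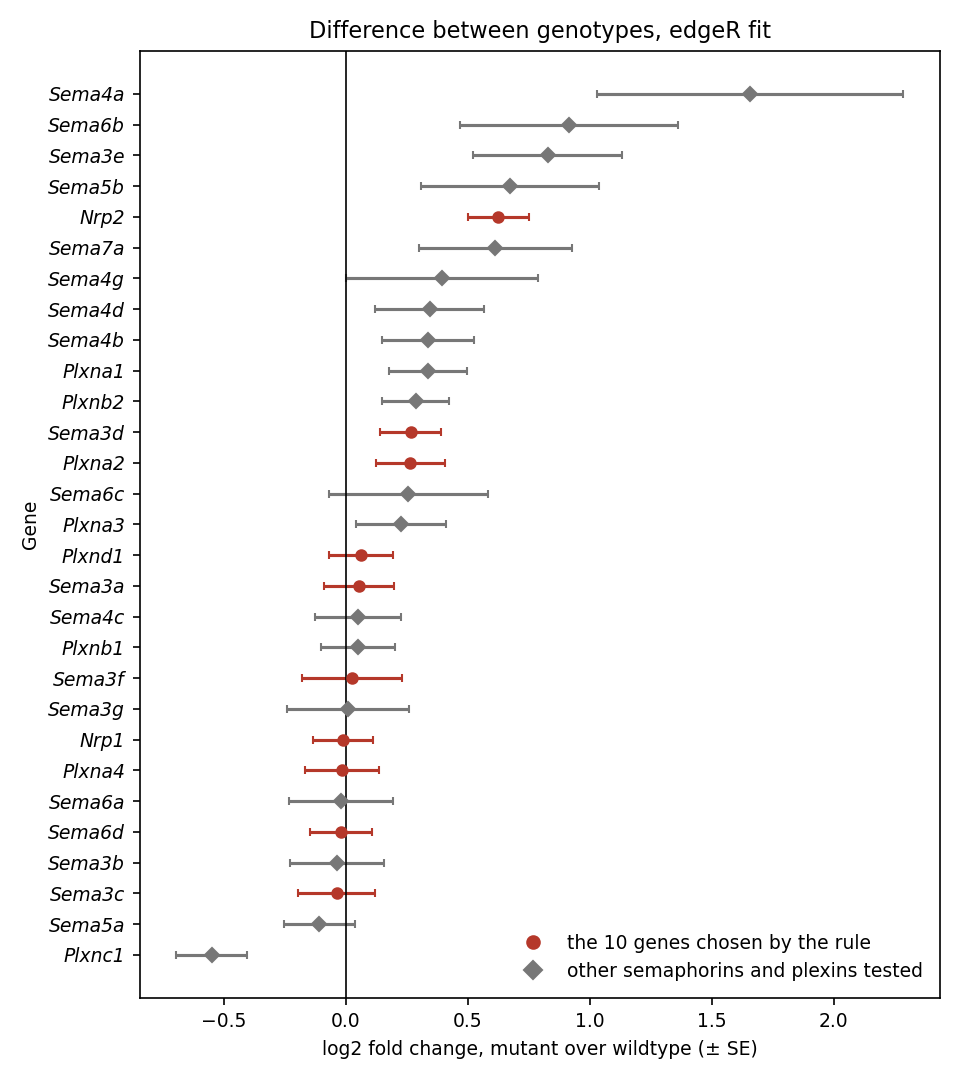
Log2 fold change of mutant over wildtype from the edgeR fit (horizontal axis; bars are 1 SE) for the 10 genes (red circles) and the 19 other semaphorins and plexins that were tested (grey diamonds). Nrp2 lies at 0.63, the other 9 red points between -0.037 and 0.27, and Plxnc1 is lowest at -0.55.

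The rest of the family was measured for comparison. Of 21 other semaphorin and plexin genes with a row, 19 passed the low count filter; Sema4f and Plxnb3 did not. By edgeR 0 of the 19 passed the adjusted threshold, where 0.0629% of all genes did. At an unadjusted p under 0.05, 2 were higher (Sema3e and Sema4a) and 1 was lower (Plxnc1), where 3.88% and 1.90% of all genes were. DESeq2, limma-voom and the blocked fit called 0. The median log2 fold change was 0.29, against -0.0027 over all genes. In 8 of the 19 both mutant libraries lay above both wildtype libraries, where 17.0% of all tested genes did. Sema4a is among those 8 and passed the filter only through its mutant libraries.

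Plxnc1, the receptor of Sema7a, lay in the opposite direction to Nrp2. It measured 70.7 and 77.3 CPM in wildtype, against 54.7 and 46.3 CPM in mutant. Both mutant libraries were lower, with a log2 fold change of -0.55 ± 0.15 (SE) and an edgeR adjusted p of 0.371. Without mutant replicate 1 the log2 fold change was -0.68, from a fit whose only mutant library was the one with the most Y-linked reads. The authors' deposited edgeR comparison gave -0.55 with an adjusted p of 0.301. As a share of the length-scaled level of all 9 plexins, Plxnc1 made up 10.2% and 10.3% in the wildtype libraries and 6.49% and 6.47% in the mutant libraries. Sema7a itself measured 3.67 and 3.41 CPM in wildtype, against 6.82 and 3.88 CPM in mutant, so its higher mutant mean came mostly from mutant replicate 1.

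Plxnb2, a receptor of class 4 semaphorins, was the most abundant plexin at 27.5 CPM per kilobase, and measured 180 and 202 CPM in wildtype, against 253 and 213 CPM in mutant. Plxna1, the partner of Sema6d, measured 65.8 and 65.3 CPM in wildtype, against 94.6 and 70.7 CPM in mutant. In both, mutant replicate 1 stood furthest from the wildtype libraries. Sema3e, the direct ligand of Plxnd1, measured 2.93 and 2.34 CPM in wildtype, against 3.96 and 5.51 CPM in mutant (log2 fold change 0.83 ± 0.30, edgeR adjusted p = 0.727). Sema4a, Sema5b and Sema6b, each at under 3 CPM in all libraries, had log2 fold changes of 1.66 ± 0.63, 0.67 ± 0.37 and 0.92 ± 0.45. Sema4a rests on 3 and 5 reads in wildtype and 14 and 13 in mutant, so its size is poorly determined.

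Many of the family's differences came from the first pair alone. The log2 ratio of mutant over wildtype was above 0 in 16 of the 19 other family genes in pair 1 and in 9 of 19 in pair 2, where 49.7% and 50.5% of all tested genes were. Pair 1 gave a median of 0.49 for these 19 genes and pair 2 one of -0.022, beside -0.0021 and 0.0029 over all genes. Of the 10 genes of the set, 8 were above 0 in pair 1 and 5 in pair 2, with medians of 0.16 and 0.027. Nrp2, Plxna2 and Sema3d were the ones above 0 in both pairs, and Sema3a and Sema3c were above 0 in pair 2 alone. Gene length moved with the pair: the 3535 tested genes with at least 6907 bases of exon had medians of 0.078 in pair 1 and -0.038 in pair 2, and the 3537 with at most 2804 bases had -0.12 and 0.060. Of the 10 genes 9 were among the longest, as were 11 of the 19 others. The part of length in the pair difference was not tested.

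**Figure D4:**
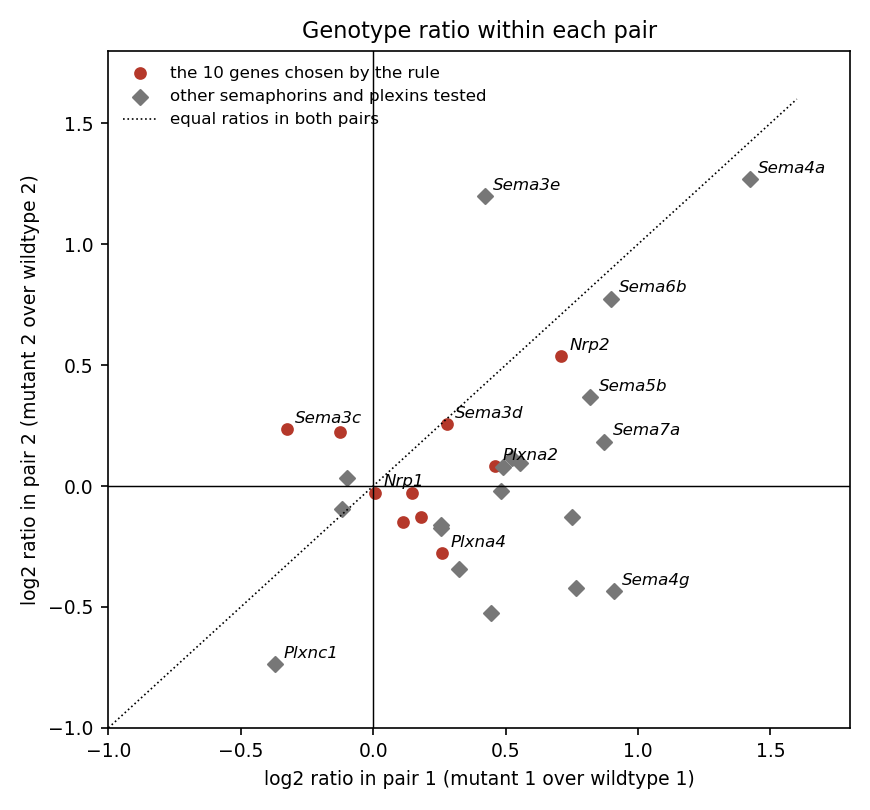
Log2 ratio of mutant over wildtype in pair 1 (horizontal axis) and in pair 2 (vertical axis) for the 10 genes (red circles) and the 19 other tested semaphorins and plexins (grey diamonds); the dotted line marks equal ratios. Nrp2 lies at 0.71 and 0.54 and Sema3d at 0.28 and 0.26, near the line, while the grey points have medians of 0.49 and -0.022.

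Genes that act beside or below these receptors were counted from 4 lists, and by edgeR 0 members of any list passed the threshold. DESeq2, limma-voom and the blocked fit called 0 as well. Of 14 co-receptors, 1 was higher and 0 were lower at an unadjusted p under 0.05, where 3.88% and 1.90% of all genes were, and the median log2 fold change was 0.13. Those of highest CPM, not scaled by length, were the integrin chain Itgb1 and the VEGF receptor Kdr, with log2 fold changes of 0.024 ± 0.15 and -0.016 ± 0.12. Of 24 intracellular effectors, 1 (Rras) was higher and 0 were lower at an unadjusted p under 0.05, beside the same 3.88% and 1.90%. In 12 of the 24 both mutant libraries lay above both wildtype libraries, against 17.0% of all genes, and in 2 both lay below, against 16.3%. Of the effectors 21 had a positive log2 fold change, where 49.5% of all genes did, and their median was 0.13. That median was 0.24 in pair 1 and 0.043 in pair 2. The effectors Mical2, an actin-oxidising enzyme, and Arhgef12, which binds B-type plexins, had the highest CPM, not scaled by length, and log2 fold changes of 0.28 ± 0.14 and 0.078 ± 0.12.

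Of 6 growth factors that share the neuropilins, 0 had an unadjusted p under 0.05, where 3.88% of all genes were higher and 1.90% lower. Their log2 fold changes ran from -0.26 to 0.19, with a median of 0.089. Vegfa was at 0.081 ± 0.13 and Vegfb at 0.096 ± 0.17. A further pair of the 6 was chosen after its values were seen, because the groups did not overlap. Groups were apart in 33.2% of all tested genes. Vegfc, the lymphatic growth factor that binds Nrp2, was at 0.19 ± 0.17, with both mutant libraries above both wildtype ones, and Figf, which encodes VEGF-D, at -0.26 ± 0.21, with both below. Of 10 transcription factors of the outflow tract, 9 could be tested, with 0 at an unadjusted p under 0.05 beside the same shares of all genes, and a median of -0.0080. Tbx20 was at 0.063 ± 0.14 and Gata6, an activator of Sema3c, at -0.053 ± 0.13. The outflow factors' median was 0.21 in pair 1 and -0.23 in pair 2, so the pairs differed in sign here too.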

How the data were processed

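The authors deposited raw counts per gene symbol for the 4 libraries; the submitters' processing notes name Bowtie2, SAMtools, TopHat2, HTSeq and edgeR, and the build mm10. Tool versions, gene annotation and counting strand: not given in the sources used here. Totals outside genes were left out of library sizes: reads outside features made up 51.8% to 54.4% of tallied reads, reads with several alignments 16.1% to 17.0%, and ambiguous reads 0.187% to 0.210%. The authors' deposited table of their edgeR comparison holds log2 fold changes (wildtype over mutant), log2 CPM, a likelihood ratio score, p-values, adjusted p-values and, for rows past their threshold, a fold change ratio.

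The genotype test ran on these counts in edgeR 4.0.16 (R 4.3.3), by filterByExpr, TMM scaling and the quasi-likelihood F test, with p-values adjusted by Benjamini-Hochberg over 14316 genes and called under 0.05. CPM values are on the TMM-scaled library sizes; log2 ratios within pairs use a prior count of 2. The SE was taken from the log2 fold change and its F statistic, and 95% intervals from its degrees of freedom. A count of 3 reads was worth 0.134 to 0.213 CPM, a limit for counting error alone: without molecular identifiers, several reads may come from one molecule. Alternatives were a replicate block, RLE scaling, 2 other filters, DESeq2 1.42.0, limma-voom (limma 3.58.1) and leaving out each library. The fits were tested on simulated counts. Positions and merged exon lengths came from GENCODE M21 (build 38), in which 22882 rows were found by current or older symbol.

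The series describes 2 paired samples of mutants and littermates, and the replicate numbers were read as pairs; as a check, same-numbered libraries deviated from their groups' means with a correlation of 0.144 over genes (genes are not independent replicates). The 10 genes and the lists were chosen with earlier results of these data known. Named beyond the 10 genes were other family members past the threshold, the 3 of highest length-scaled level and those with groups apart and a log2 fold change of at least 0.5 in size, and in each pathway list members past the threshold and the 2 of highest CPM.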

Additional observations from a re-analysis of the deposited data

How the results depend on the processing

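The number of genes called over the whole table was 9 and moved to 127 with the replicate block, 236 without a low count filter and 61 with DESeq2. Leaving out 1 library gave 3 (without wildtype replicate 2) to 443 (without mutant replicate 2), with 180 without mutant replicate 1; these fits take the single library left in a genotype to vary as the other genotype does. The cause was not tested. The count among the 9 genes other than Nrp2 was 0 in all 10 alternatives, and with the replicate block it was also 0. Among the other 19 family genes it was 0 with the block and in every other alternative except 1 without mutant replicate 1, which was Plxnc1, so the range with a library left out was 0 to 1. The log2 fold change of Nrp2 ran from 0.58 to 0.67 over the same alternatives, 0.63 with the block. This range is a description too, since the values of Nrp2 took part in the choice. Of 90 values for the 9 other genes, 79 kept their direction and 11 changed sign, all with a library left out. Without wildtype replicate 2 these were Nrp1 (0.011), Plxna4 (0.17) and Sema6d (0.055). Without mutant replicate 2 they were Plxna4 (0.079), Sema3a (-0.10) and Sema6d (0.042). Without wildtype replicate 1 they were Sema3c (0.056) and Sema3f (-0.090), and without mutant replicate 1 Plxnd1 (-0.051), Sema3c (0.14) and Sema3f (-0.012). With 2 libraries a genotype, the fit left 2 residual degrees of freedom, or 1 with the block. With a library left out in turn, log2 fold changes ran from -0.030 to 0.011 for Nrp1, -0.18 to 0.17 for Plxna4 and -0.051 to 0.17 for Plxnd1. For Plxna2 they ran from 0.13 (without wildtype replicate 1) to 0.41 (without wildtype replicate 2). For the ligands they ran from -0.10 to 0.20 for Sema3a, -0.24 to 0.14 for Sema3c and 0.21 to 0.32 for Sema3d. Those of Sema3f ran from -0.090 to 0.15 and those of Sema6d from -0.088 to 0.055. Depth limits Sema3f most, at 120 to 202 reads.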

Other observations

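Genes around Nrp2 on chromosome 1 were set beside it. Within 1000000 bases, 11 other protein-coding genes had a row and 7 of them could be tested. Pard3b, a polarity gene 61001 bases upstream, measured 49.8 and 49.0 CPM in wildtype, against 55.1 and 43.4 CPM in mutant, and Ino80d, a chromatin remodeller subunit 139723 bases downstream, 158 and 176 CPM in wildtype, against 193 and 171 CPM in mutant. In both the groups overlapped. Of the 7, Zdbf2, an imprinted gene 454570 bases downstream, was the one with groups apart, as were 33.2% of all tested genes. It measured 94.4 and 91.7 CPM in wildtype, against 126 and 103 CPM in mutant (edgeR log2 fold change 0.30 ± 0.14, adjusted p = 0.891).

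Sema3d, Sema3a, Sema3e and Sema3c lie in this order on chromosome 5, from 12383385 to 17730268. The mutant libraries were above the wildtype ones for Sema3d and Sema3e, as in 17.0% of all tested genes, and overlapped them for Sema3a and Sema3c. By edgeR none of these genes passed the adjusted threshold, and whether neighbours along the chromosome share a pattern was not tested. A further 3 immune partners of the family, chosen after their values were seen, had both mutant libraries above both wildtype libraries. They are 3 of the 14 co-receptors counted, and 17.0% of all tested genes had this order. Tyrobp and Trem2, which join Plxna1 as receptors for Sema6d in myeloid cells, measured 2.93 and 1.51 CPM and 0.905 and 0.568 CPM in wildtype, against 4.67 and 4.73 CPM and 1.45 and 1.20 CPM in mutant. Cd72, a partner of Sema4d in B cells, measured 0.586 and 1.07 CPM in wildtype, against 1.72 and 1.48 CPM in mutant. Their edgeR adjusted p were 0.586, 0.932 and 0.891. Tyrobp is also on the leukocyte list. Leukocyte markers moved with them, as they did with Nrp2, and their part was not tested.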
